A study of Homo sapiens with 6 samples.

Results

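The genes described are the human splicing factors of the hnRNP and SR families and of the U2 and U4/U6.U5 particles, followed in RNA that was exposed in vitro to the ribonuclease IRE1. They were chosen by name and type. A member is a protein-coding gene whose symbol starts with HNRNP, SRSF, SF3A, SF3B, U2AF or PRPF, or is SRRM1, SRRM2, TRA2A, TRA2B or SON. The annotation holds 67 such genes, of which 65 were among the 57905 genes counted. Of these 65, 62 passed the filter on low counts and were tested, among 14398 tested genes in all. HNRNPCL2 and SRSF8 were not analysed here.

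The RNA came from H929, an established human multiple myeloma cell line. In each reaction, 5 μg of total RNA was held for 1 h at 37 °C in the same cleavage buffer. The IRE1-treated group (3 samples) also received 2 μg of recombinant human ERN1/IRE1α, a protein of amino acids 467 to 977 that holds the kinase and RNase parts, and the control group (3 samples) received no enzyme. Every reaction was stopped at 95 °C for 5 min, and poly(A)-containing mRNA was then purified and sequenced, and the comparison asks which mRNAs had fewer reads where the enzyme was present. No cell was treated, so the values describe what remained of purified RNA in a tube. The controls had 25678499, 22433916 and 21144515 counts on genes and the IRE1-treated samples 19615715, 21525644 and 23041598. No lane was shared between samples, so sample and lane cannot be told apart.

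Pre-mRNA splicing is carried out by the spliceosome, a machine of small nuclear RNAs and proteins. U2AF and the SF3A and SF3B complexes mark the 3′ end of the intron and the branch point, and the PRPF proteins belong mostly to the particles that form the catalytic centre. SR proteins mostly favour the use of an exon to which they bind, many hnRNP proteins oppose it, and SRRM2 and SON are large proteins that build nuclear speckles, where splicing factors are stored. IRE1 is the sensor of unfolded protein in the endoplasmic reticulum. Its RNase cuts the XBP1 mRNA, and other mRNAs, preferentially at the letters CTGCAG held in the loop of a hairpin. When a cleaved mRNA is purified by its poly(A) tail, the 3′ fragment is kept and the 5′ fragment is not.

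The RNA had the marks of a plasma cell line. The 8 plasma cell genes checked (SDC1, TNFRSF17, XBP1, IRF4, PRDM1, MZB1, CD38 and SLAMF7) summed to 142927 to 199853 counts per library. The summed counts of 3 B-cell genes were 40 to 64, those of 3 myeloid genes 21 to 49, those of 3 fibroblast genes 5 to 13 and those of 2 erythroid genes 0 to 4. The T-cell sum of 891 to 1065 counts came almost wholly from CD3E, since CD3D had at most 1 count and CD2 at most 7. The epithelial sum of 1262 to 1487 came mostly from the keratin gene KRT18, with at most 2 counts for EPCAM.

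Known substrates of IRE1 were read first, to give the scale of the assay in gene counts. BLOC1S1, the standard mRNA of IRE1-dependent decay, had 607, 584 and 651 normalized counts (counts divided by the scaled library size, at the level of a mean library) in controls 1 to 3, and 276, 230 and 212 in IRE1-treated samples 1 to 3. All treated values lay below all control values, with a log2 fold change of −1.37 (SE 0.095, adjusted p = 1.25e-06, edgeR's quasi-likelihood test). BLOC1S1 shares exon bases with a gene on each strand. XBP1, the classical substrate, had 61124, 58538 and 59921 normalized counts in controls and 57376, 56865 and 54174 in treated samples. The treated values were all below the controls, but the difference did not pass the test (log2 fold change −0.0927, SE 0.0436, adjusted p = 0.143). It did once the trend with transcript length and GC content was removed from each library (−0.191, adjusted p = 0.00138). At the level of exons, the paper reported clearly fewer XBP1 reads 5′ of the cleavage sites after IRE1, and similar reads in the 3′ region. It checked this by qRT-PCR. A gene count sums both parts, so it does not give the extent of cleavage.

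Among the 62 tested splicing factors, 5 were lower and 14 higher in IRE1-treated samples, and 43 did not pass the test (adjusted p under 0.05 over all tested genes). Over all tested genes, 12.4% were called lower and 10.3% called higher. The 5 lower members were SRRM2, SON, SF3B1, PRPF8 and PRPF4B, or 8.06% of the 62. The difference from the 12.4% of all tested genes was not tested. Without control 1 all lower genes fell from 1781 to 972, and without control 2 to 992, with 4 members lower in each fit. The 14 higher members, from SF3B6 at the top to HNRNPAB, made up 22.6%, above the 10.3% of all tested genes. The median log2 fold change was 0.0706 over the members and 0.00447 over all tested genes. These changes were small beside that of BLOC1S1: the tested members ran from −0.345 to 0.409 on the log2 scale. All treated values lay below all control values for 7 members and above them for 21, whereas over all tested genes these shares were 20.0% and 19.1%.

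The numbers of lower and higher calls moved with the scaling, for the members as for all genes. With library size alone in place of TMM scaling, 8 members were lower (12.9%) and 7 higher (11.3%), against 18.0% lower and 4.74% higher over all tested genes. This scaling moved every tested gene down by a similar amount (−0.0925 to −0.0671, median −0.0749). The median over the members became −0.00524 and that over all tested genes −0.0706, so the members' median lay 0.0661 above that of all genes with TMM scaling and 0.0654 above it with library size alone. The same 5 members were still called lower, joined by SRRM1, SF3A1 and HNRNPUL1, and the 7 still called higher were SF3B6, SRSF5, U2AF1, SRSF9, PRPF38A, HNRNPC and HNRNPA1. Those 7 also kept their call when any single library was left out. The number of higher members fell from 14 to 7 without control 2, to 8 without control 1 and to 9 without control 3. The summed counts of the 62 members were 1.35%, 1.34% and 1.32% of the counts on genes in controls 1 to 3 and 1.32%, 1.29% and 1.32% in IRE1-treated samples 1 to 3, so the family as a whole held nearly the same share of each library.

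**Figure D1:**
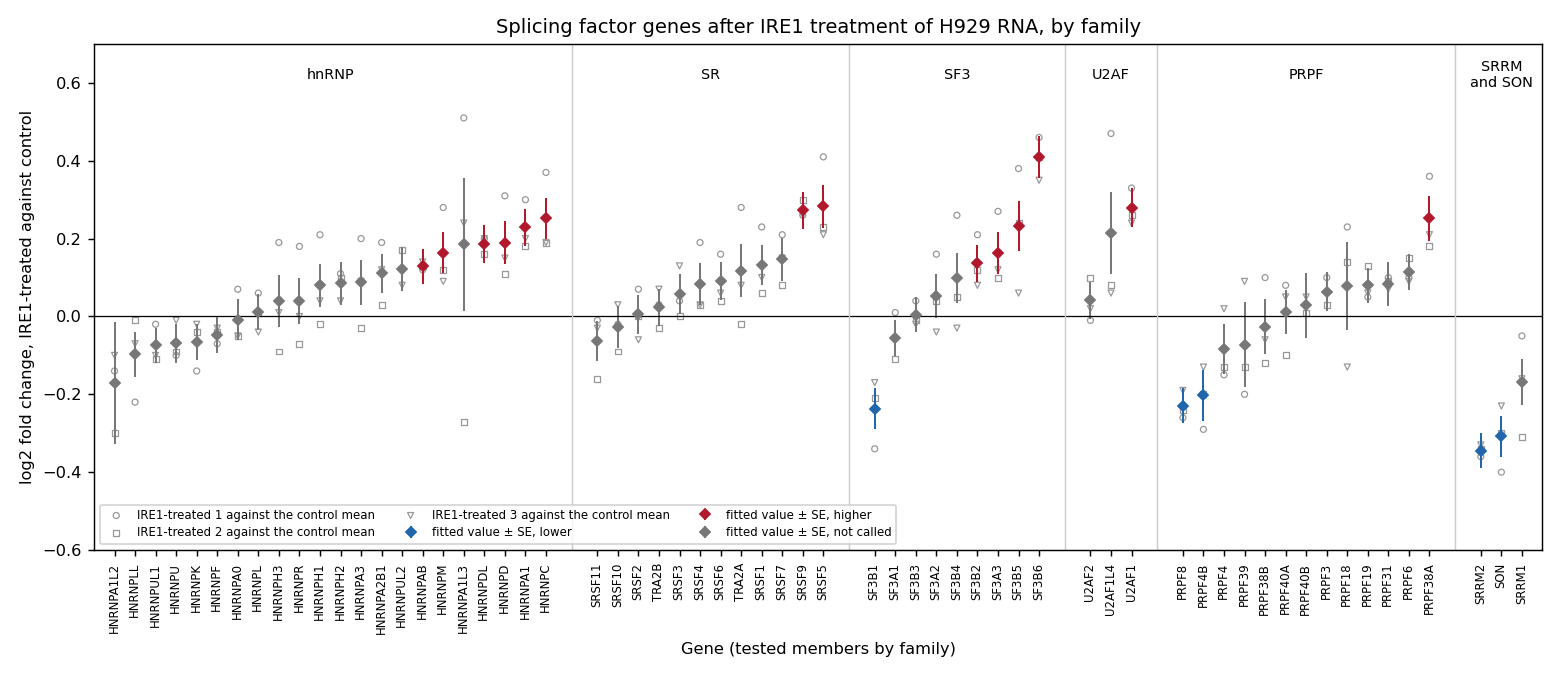
Fitted log2 fold changes (IRE1-treated against control, diamonds with SE) of the 62 tested splicing factor genes by family, with open symbols for each treated library against the control mean. The 5 genes called lower (blue) are SRRM2, SON, SF3B1, PRPF8 and PRPF4B, and the 14 called higher (red) reach 0.409 at SF3B6, whereas with library size alone the numbers are 8 lower and 7 higher.

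Of the speckle proteins, SRRM2 and SON gave the lowest values of all members. SRRM2 (ENSG00000167978, chr16:2802627-2822539 on GRCh37) encodes a very large arginine- and serine-rich protein that scaffolds speckles. Its normalized counts were 18571, 18707 and 17488 in controls 1 to 3 and 14217, 14437 and 14478 in treated samples 1 to 3. The treated libraries lay close together, all below the lowest control, and on average at 78.8% of the controls, with a log2 fold change of −0.345 (SE 0.0451, adjusted p = 0.000162). SRRM2 shares exon bases with a gene on the same strand and with ELOB on the other.

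SON (ENSG00000159140, chr21:34915344-34949787), the other core protein of speckles, had 4862, 4853 and 4542 normalized counts in controls 1 to 3 and 3598, 3872 and 4041 in treated samples 1 to 3. The groups did not overlap, and treated sample 1 was the lowest. The treated mean was 80.7% of the control mean, with a log2 fold change of −0.308 (SE 0.0527, adjusted p = 0.000937). SON overlaps DONSON on the opposite strand. SRRM1, a coactivator that bridges SR proteins bound to an exon, had 3059, 3123 and 3018 in controls and 2972, 2476 and 2741 in treated samples. The treated values were all below the controls but spread widely, and the gene just missed the threshold (log2 fold change −0.169, SE 0.0592, adjusted p = 0.0508). Its adjusted p ran from 0.000841 without IRE1-treated sample 1 to 0.248 over the other ways of processing, and it was below the threshold with DESeq2 (0.0494).

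The SF3A and SF3B complexes, which form the core of the U2 particle at the branch point, split in both directions. Of 9 tested subunits, 1 was lower and 4 were higher (with library size alone, 2 and 1). SF3B1 (ENSG00000115524, chr2:198253239-198299803), the large subunit that clamps the branch point helix, had 4957, 4818 and 4666 normalized counts in controls 1 to 3 and 3799, 4164 and 4287 in treated samples 1 to 3. All treated values were below all controls, with a log2 fold change of −0.237 (SE 0.0525, adjusted p = 0.00477).

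SF3B6 (ENSG00000115128, chr2:24290456-24299243), the small subunit that touches the branch point adenosine, moved the other way. It had 1555, 1439 and 1434 normalized counts in controls 1 to 3 and 2035, 1964 and 1887 in treated samples 1 to 3, with no overlap. At 133% of the control mean, with a log2 fold change of 0.409 (SE 0.0539, adjusted p = 0.000168), it was the highest of the 62 members. SF3B5, the smallest subunit, also rose (0.233, SE 0.0649), as did SF3A3 (0.164) and SF3B2 (0.137). The calls of these 3 did not hold without some libraries. That of SF3B5 was lost without control 1, control 2 or IRE1-treated sample 2 (adjusted p = 0.0709 to 0.0838), that of SF3A3 without any control or IRE1-treated sample 1 (0.0703 to 0.186), and that of SF3B2 without any control or IRE1-treated sample 2 (0.102 to 0.222). With replicate number as a block, SF3A3 and SF3B2 also lost their calls. SF3B3, the propeller-shaped partner of SF3B1, was level, with 7850, 7632 and 7967 normalized counts in controls and 8050, 7748 and 7723 in treated samples (log2 fold change 0.00431, SE 0.0448, adjusted p = 0.96). The protein partners SF3B1, SF3B3 and SF3B6 therefore had mRNA values below, at and above the control level.

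The PRPF genes held 2 lower and 1 higher among 13 tested. Their median log2 fold change was 0.0292, and −0.0185 without control 3. With library size alone it was −0.0458, which is the common shift of that scaling, and it lay 0.0247 above the median of all tested genes with TMM scaling and 0.0249 above it with library size alone. PRPF8 (ENSG00000174231, chr17:1553923-1588161), the protein that cradles the catalytic RNA in the U5 particle, had 9936, 9853 and 9612 normalized counts in controls 1 to 3 and 8184, 8323 and 8569 in treated samples 1 to 3. The gap between the groups was wider than the spread within either. The log2 fold change was −0.229 (SE 0.0443, adjusted p = 0.0021). PRPF4B, a kinase of the tri-snRNP, had 874, 862 and 815 in controls and 696, 740 and 779 in treated samples. The highest treated value was close to the lowest control but below it, with a log2 fold change of −0.203 (SE 0.0646, adjusted p = 0.0334). Its call was the weakest of the 5 and was kept in 2 of 6 fits that left out a library. It was lost without control 1 (adjusted p = 0.139), control 2 (0.127), IRE1-treated sample 1 (0.0754) or IRE1-treated sample 2 (0.0927), with replicate number as a block (0.072) and with DESeq2 (0.0544).

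PRPF38A, which is part of the spliceosome before its activation, was the higher PRPF gene, with 1478, 1443 and 1400 normalized counts in controls 1 to 3 and 1850, 1636 and 1668 in treated samples 1 to 3. Treated sample 1 stood highest and no treated value reached down to the controls. The log2 fold change was 0.252 (SE 0.0571, adjusted p = 0.00545). The other 10 PRPF genes lay between −0.0836 (PRPF4) and 0.114 (PRPF6) with no call.

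**Figure D2:**
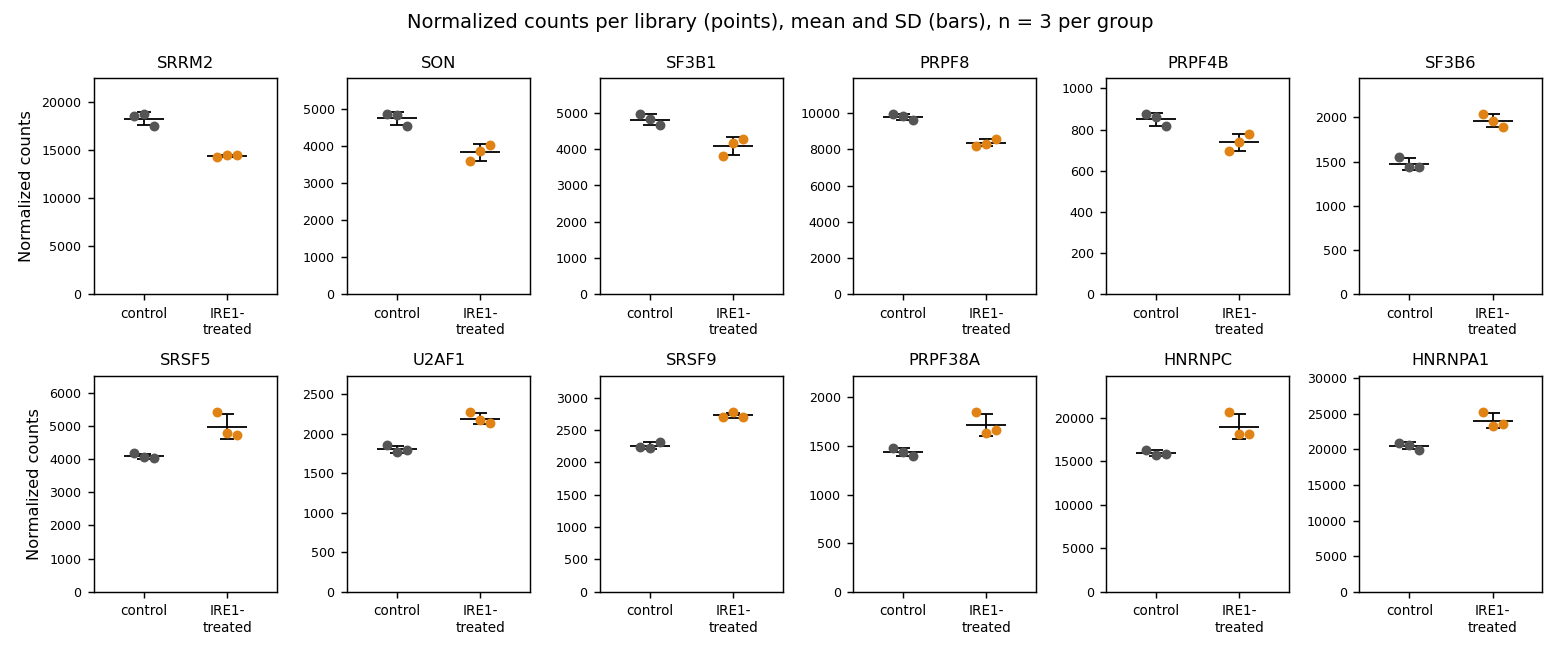
Normalized counts per library (points) with mean and SD (n = 3 per group) for the 5 members called lower and the 7 whose higher call held with library size alone. The groups do not overlap in any panel, and SRRM2 goes from a mean of 18255 in controls to 14377 in treated samples, and SF3B6 from 1476 to 1962.

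U2AF recognises the end of the intron. U2AF1 (ENSG00000160201, chr21:44513066-44527680), which reads the terminal AG, had 1851, 1760 and 1795 normalized counts in controls 1 to 3 and 2271, 2165 and 2130 in treated samples 1 to 3. Every treated value was above every control, at a log2 fold change of 0.279 (SE 0.05, adjusted p = 0.00126). Its partner U2AF2, which binds the pyrimidine tract, had 3565, 3545 and 3627 in controls and 3566, 3847 and 3635 in treated samples. These ranges overlapped (log2 fold change 0.0415, SE 0.0474, adjusted p = 0.581). The third gene, U2AF1L4, had 374, 367 and 419 normalized counts in controls and 538, 409 and 404 in treated samples. These overlapped, and only treated sample 1 was above all controls (log2 fold change 0.215, SE 0.105, adjusted p = 0.159). Without IRE1-treated sample 1 the value was 0.0769, and without IRE1-treated sample 3 the gene was called higher.

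Among the SR proteins, with 12 tested genes, none was lower and SRSF5 and SRSF9 were higher by edgeR. The same numbers came from DESeq2 and from library size alone. With TMM scaling no SR gene was lower at an unadjusted p under 0.05. SRSF5 had 4170, 4075 and 4023 normalized counts in controls 1 to 3 and 5416, 4791 and 4725 in treated samples 1 to 3 (log2 fold change 0.283, SE 0.0545, adjusted p = 0.00208). SRSF9 had 2238, 2219 and 2318 in controls and 2704, 2779 and 2701 in treated samples (0.273, SE 0.0471, adjusted p = 0.00101). Both were higher in 3 of 3 treated libraries than in any control, and SRSF9 shares exon bases with a non-coding gene on its strand and with GATC on the other.

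The best known SR genes did not pass the test. SRSF1, the founding member, had a log2 fold change of 0.133 (SE 0.0509, adjusted p = 0.0704) and was called when IRE1-treated sample 3 was left out (adjusted p = 0.036). SRSF2, which shares exon bases with MFSD11 on the other strand, gave 0.00551 and SRSF3, the smallest of them, 0.0587. TRA2A and TRA2B, the relatives of the fly sex determination factor transformer-2, gave 0.118 (SE 0.0687) and 0.0236 (SE 0.0473). Neither was called, and that of TRA2A moved to 0.0354 without IRE1-treated sample 1 and to 0.184 without IRE1-treated sample 2. SRSF11 was the lowest SR gene, at −0.0627 (SE 0.0516, adjusted p = 0.424), and ran from −0.0867 to −0.0179 with each library left out in turn. SRSF12 was not tested, with raw counts of 4, 3 and 2 in controls and 6, 3 and 9 in treated samples.

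The hnRNP genes, 22 of them tested, had no lower and 6 higher calls by edgeR, the same by DESeq2, and 1 lower (HNRNPUL1) and 2 higher with library size alone. With TMM scaling none was lower at an unadjusted p under 0.05. HNRNPC, which coats uridine tracts of nascent transcripts, had 16277, 15641 and 15801 normalized counts in controls 1 to 3 and 20626, 18111 and 18083 in treated samples 1 to 3. Treated sample 1 was far above the others, yet all treated values cleared the controls (log2 fold change 0.252, SE 0.0535, adjusted p = 0.0037). HNRNPA1, a shuttling protein that silences exons, had 20936, 20664 and 19949 in controls and 25261, 23292 and 23588 in treated samples (0.229, SE 0.0469, adjusted p = 0.00293). Again no treated value was within the range of the controls. The annotation names 74 pseudogenes after HNRNPA1 and 9 after HNRNPC, so the split of reads between these genes and their copies is uncertain.

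The other higher hnRNP genes were HNRNPD (0.19), HNRNPDL (0.186), HNRNPM (0.164) and HNRNPAB (0.129), and all of these lost the call with library size alone. Without control 2 all 4 lost it too (adjusted p = 0.103, 0.0823, 0.159 and 0.231 in that order). HNRNPD also lost it without control 1 (0.0505) or control 3 (0.0861), HNRNPM without any library but IRE1-treated sample 3 (0.0655 to 0.159), and HNRNPAB without any control or IRE1-treated sample 2 (0.109 to 0.231). With replicate number as a block, HNRNPM and HNRNPAB were not called. HNRNPA2B1, a relative of HNRNPA1, gave 0.111 (SE 0.0497, adjusted p = 0.122). HNRNPK, which binds cytidine-rich stretches, gave −0.0655 (SE 0.047, adjusted p = 0.35), and HNRNPU, which ties RNA to chromatin, gave −0.0691 (SE 0.0497, adjusted p = 0.351). With each library left out in turn, HNRNPK ran from −0.0827 to −0.0282 and HNRNPU from −0.107 to −0.0337, neither of them called. The lowest value, −0.171 in HNRNPA1L2, rested on 63.4 to 84.4 normalized counts and had an SE of 0.156. HNRNPCL1 (raw counts of 3, 2 and 2 in controls and 0, 4 and 1 in treated samples) and the read-through gene HNRNPUL2-BSCL2 (3, 2 and 0 against 0, 0 and 0) were not tested.

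The levels themselves spanned a wide range. Per 1000 bases of canonical transcript, the control means of the tested members ran from 47.6 normalized counts in HNRNPA1L3 to 5790 in SF3A2, with 5480 in HNRNPA1, 5026 in HNRNPC, 2018 in SRRM2, 566 in SON and 113 in PRPF4B.

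The direction of change followed transcript length in many of these genes, as it did across all genes. The 5 lower members all have long canonical transcripts, with a length in bases of 6463 for SF3B1, 7280 for PRPF8, 7517 for PRPF4B, 8393 for SON and 9044 for SRRM2. In SF3B6 it has 651 bases, in SF3B5 690, in U2AF1 945, in SRSF9 1152 and in SRSF5 1496. Under 2000 bases, 0 of 15 members were lower and 6 were higher, with a median log2 fold change of 0.129. From 2000 to 4000 bases, 0 of 25 were lower and 6 higher, with a median of 0.08. Over 4000 bases, 5 of 22 were lower and 2 higher (PRPF38A and HNRNPDL), with a median of −0.00207. The zeros are edgeR's with TMM scaling, and DESeq2 gave 0 and 1. At an unadjusted p under 0.05 the lower members were 0 in the shortest bin and 1, SRRM1, in the middle bin. The middle bin held 2 lower members with library size alone, and 1 without a filter, with at least 10 counts in every library, with limma, without IRE1-treated sample 1 or without IRE1-treated sample 3. Its higher members fell from 6 to 2 without control 1, control 2 or control 3 and with library size alone, and to 3 with replicate number as a block. Over 4000 bases the higher members fell to 1 without control 2. Without IRE1-treated sample 1 the median was 0.0769 in the shortest bin and 0.0477 in the middle bin. With library size alone these medians were 0.0537 and 0.003, and with the length and GC trend removed 0.0373 and 0.029.

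All tested protein-coding genes followed the same order, more steeply at the long end. Under 2000 bases 0.243% of 2881 genes were lower and 34.2% higher, with a median of 0.169. From 2000 to 4000 bases 3.77% of 4435 were lower and 6.72% higher, with a median of 0.0211. Over 4000 bases 31.3% of 4909 genes were lower and 2.04% higher, and their median was −0.167. The median of the long members was therefore well above that of other long genes, though its own sign was not fixed. It was 0.000933 with upper quartile scaling, 0.013 without control 1, 0.0164 without IRE1-treated sample 2, 5.32e-05 without IRE1-treated sample 3 and 0.199 with the length and GC trend removed. Across genes, which are not independent replicates, Spearman's rho between log2 fold change and transcript length was −0.497 over the 62 members and −0.645 over the 12225 protein-coding genes. By family it was −0.817 over 9 SF3 genes, −0.505 over 13 PRPF genes, −0.483 over 12 SR genes and −0.0446 over 22 hnRNP genes, which showed almost no order by transcript length. With coding length the rho of the hnRNP genes was −0.34.

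**Figure D3:**
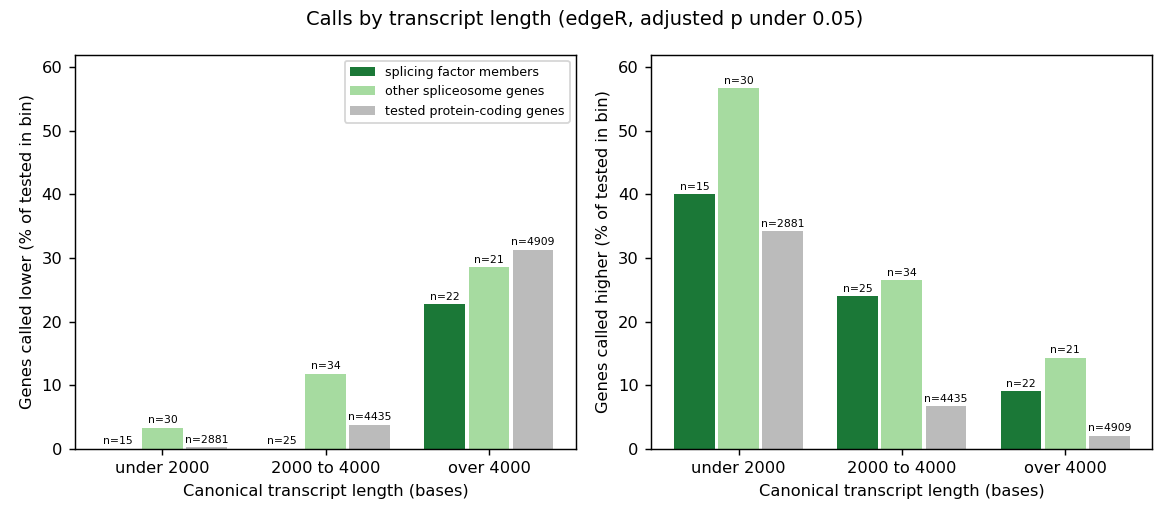
Percent of tested genes called lower (left) and higher (right) by edgeR in 3 bins of canonical transcript length, for the members, the other spliceosome genes and all tested protein-coding genes, with n above each bar. With TMM scaling 5 of 22 members over 4000 bases are lower and 6 of 15 under 2000 bases are higher, whereas with library size alone 2 members of 2000 to 4000 bases are also lower.

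Among the members with long transcripts, the lower calls made with TMM scaling were in those with a long coding part. This division at 3000 coding bases was chosen after the values were seen. Of the 22 members with over 4000 bases, 6 have at least 3000 coding bases, namely SRRM2 (8256), SON (7278), PRPF8 (7005), SF3B1 (3912), SF3B3 (3651) and PRPF4B (3021), and 5 of these 6 were lower. The other 16, long through their untranslated parts, had 0 lower calls by edgeR with TMM scaling, by DESeq2 or at an unadjusted p under 0.05, and 2 higher ones, and their median was 0.032 on the log2 scale. With library size alone SF3A1, of 5090 bases with 2379 coding, was lower. HNRNPA0 (8713 bases, 915 of them coding) gave −0.00844, SRSF10 (7656 and 786) −0.0271, HNRNPR (7751 and 1899) 0.0404 and SRSF1 (5343 and 744) 0.133. Among all tested protein-coding genes with over 4000 bases, 46.3% of 1662 with at least 3000 coding bases were lower, and 23.6% of 3247 with fewer. Genes with the longer coding part also had longer transcripts. Median transcript lengths were 7955 and 5224 bases in the members, and 6929 and 5448 in all these genes. The division thus does not separate coding length from transcript length. Spearman's rho with coding length was −0.599 over the members and −0.515 over all protein-coding genes. Which transcript of each gene H929 cells make, and how long its 3′ end is, was not measured here.

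**Figure D4:**
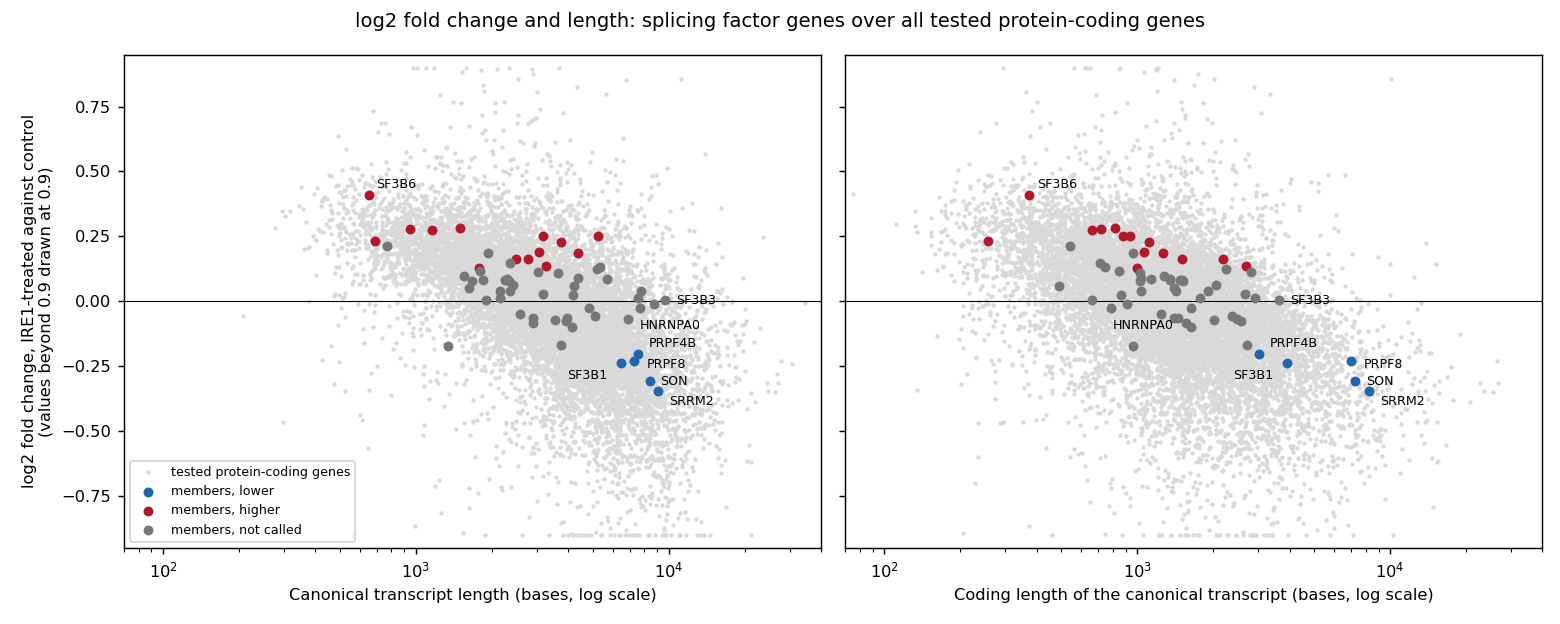
Log2 fold change (IRE1-treated against control) by canonical transcript length (left) and by its coding length (right), both in bases on a log scale, for the 62 members over 12225 tested protein-coding genes (grey). The 5 members called lower sit at the long end of both axes, whereas HNRNPA0 is long on the left (8713 bases) and short on the right (915).

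When the trend with transcript length and GC content was removed from each library, the picture turned. No member was then lower and 21 were higher (edgeR), against 3.91% lower and 6.86% higher over all tested genes. A single member was lower at an unadjusted p under 0.05. SRRM2 moved to −0.116 (adjusted p = 0.0581), SON to −0.0663 (0.308), PRPF8 to −0.0351 (0.593), SF3B1 to −0.022 (0.796) and PRPF4B to 0.0587 (0.553). Of the 14 members called higher at first, 8 remained, and SRSF9 (0.131, adjusted p = 0.0611) and U2AF1 (0.122, adjusted p = 0.0735) were among those that did not. SF3B6 kept its call at 0.238 (adjusted p = 0.00311), SRSF5 at 0.172 (0.0267), HNRNPA1 at 0.305 (0.000539), HNRNPC at 0.299 (0.00318) and PRPF38A at 0.425 (0.000644).

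Most of the calls gained this way were long members with values close to those of the controls. Of the 22 members over 4000 bases, 14 were higher once the trend was removed, among them SF3B3 (0.267, adjusted p = 0.00204), SRSF1 (0.318, adjusted p = 0.00331), SRSF3 (0.18, adjusted p = 0.00984), TRA2B (0.134, adjusted p = 0.0389) and HNRNPU (0.156, adjusted p = 0.0144). HNRNPU had been below the controls by a value that did not pass the test. A higher value on this scale is relative to other genes of like length and GC content, and does not mean that the counts themselves were higher in the treated libraries. Of hnRNP genes 10 were higher, of SR genes 6, of SF3 genes 3 and of PRPF genes 2. After removal, Spearman's rho with transcript length turned from −0.497 to 0.336 over the 62 members, with 0.647 over the hnRNP and 0.678 over the SR genes. Over all tested protein-coding genes it was −0.104. With coding length the members' rho stayed negative, at −0.298 after removal, and with GC content it was −0.456.

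**Figure D5:**
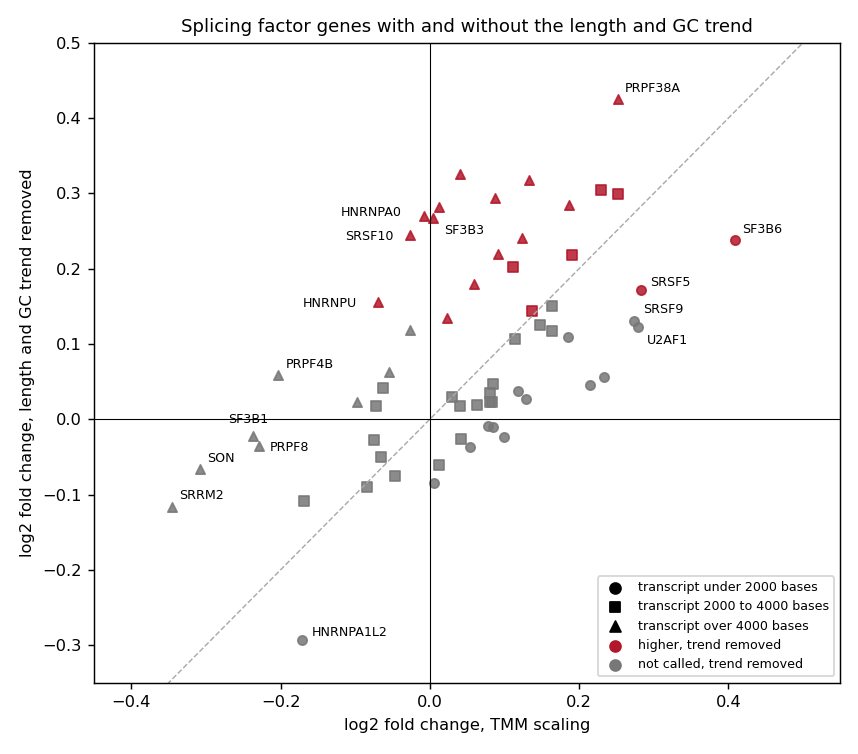
Log2 fold changes of the 62 members with TMM scaling (horizontal) and after removal of the length and GC trend (vertical), with symbols for transcript length, colours for the call after removal and a dashed line of equal values. SRRM2 moves from −0.345 to −0.116, and 14 of the 22 members over 4000 bases (triangles) are called higher after removal.

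The letters CTGCAG were searched on the transcript strand of each canonical transcript, and a match is a description of sequence, not a cleavage site. They occur 124 times in the 62 members, in 42 of them, or 0.532 times per 1000 bases, against 0.806 over all tested protein-coding genes, of which 85.3% hold at least 1. SRRM2 and SON hold 7 each, PRPF8 8, PRPF4B 1 and SF3B1 none. SF3B3, which did not differ between the groups beyond its error, holds 11, the most of all members. Each site was then folded with 15 bases on either side. A site was called a hairpin site where the G of CTG was unpaired, in a loop with 5 to 11 bases and a stem of 3 or more pairs. Hairpin sites were found in 17 of 62 members and in 35.4% of all tested protein-coding genes, and they made up 16.1% of sites in members and 15.4% in all these genes.

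Among the lower members, SRRM2 had 1 hairpin site and PRPF8 had 2, and SON, PRPF4B and SF3B1 had none. Among the 14 higher members, SF3A3 and SF3B2 had 1 each. Their sequences follow in 30 bases of GENCODE transcript on GRCh37, so that lower and higher genes can be read side by side, after 2 of the 3 sites of the substrate BLOC1S1. The BLOC1S1 site at base 176 of the transcript met the hairpin rule and that at base 448 did not. The cleavage position published for BLOC1S1 is numbered close to the latter, although the transcript behind that number was not given, so the rule may miss a used site. The canonical XBP1 transcript in the annotation, of 1128 coding bases, is the spliced form, from which the intron that IRE1 excises is already absent. It holds 0 CTGCAG, which says nothing of the unspliced XBP1 mRNA. Capitals mark the motif.
BLOC1S1, base 448: tacaaagggcagCTGCAGtctgccccttcc
BLOC1S1, base 176: gagaggctatcaCTGCAGcgacctgcctga
SRRM2: acctcttgatcgCTGCAGatcacctggaat
PRPF8, upstream site: atcatcagaggcCTGCAGtttgcctcattc
PRPF8, downstream site: ggggtctggaacCTGCAGaatgaggttact
SF3B2: atgcgagaggccCTGCAGgagaaggaagaa
SF3A3: gttggaatgggcCTGCAGcccaacaaacaa
Both BLOC1S1 sites lie in the coding sequence on the plus strand, that at base 448 in exon 4 (chr12:56113361-56113390) and that at base 176 in exon 2 (chr12:56110729-56110758). That of SRRM2 is in the coding sequence in exon 11 of 15 (chr16:2816904-2816933, plus strand), 73.3% of the way along the transcript from its 5′ end. The upstream PRPF8 site is in the coding sequence in exon 21 of 43 (chr17:1577918-1577947, minus strand). The downstream one is in the coding sequence in exon 23, and its printed bases cross a junction to the next exon (chr17:1576486-1576674 with the intron, minus strand). The SF3B2 site is in the coding sequence in exon 13 of 22 and also crosses a junction (chr11:65827457-65828058 with the intron, plus strand), and the SF3A3 site is in the 3′ UTR in exon 17 (chr1:38423007-38423036, minus strand). The same motif in a predicted loop was thus present in members on both sides of the control level.

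Members with and without a hairpin site were compared by their medians and calls, without a test. The 17 members with such a site had a median log2 fold change of 0.0402, with 2 lower and 2 higher calls, and the 45 without it had 0.0778, with 3 lower and 12 higher. Over 4000 bases, the 4 members with such a site had a median of −0.109 with 2 lower, and the 18 without it −0.00207 with 3 lower. Among all tested protein-coding genes, the 4329 with a hairpin site had a median of −0.0578, with 798 lower and 254 higher calls. The 7896 without it had a median of 0.0233, with 912 lower and 1130 higher. Among those of over 4000 bases, the median was −0.16 for the 2388 with a hairpin site and −0.174 for the 2521 without. Of these long genes, 741 with a hairpin site and 795 without were called lower. Spearman's rho between log2 fold change and the number of CTGCAG letters was −0.229 over the members and −0.337 over all protein-coding genes, where longer transcripts also hold more sites.

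Other parts of the splicing machinery also moved in both directions in a list of 89 further gene symbols, of which 86 were matched and 85 tested. Of the unmatched, NHP2L1 and SPF27 are other names of SNU13 and BCAS2, which are in the list, and RBM8A had no match. In all, 11 were lower and 29 higher, with a median log2 fold change of 0.13 (15, 20 and 0.0537 with library size alone). The 12.9% called lower was close to the 12.4% of all tested genes, and the 34.1% called higher was above the 10.3%. Under 2000 bases, 56.7% of the list were higher, against 34.2% of all tested protein-coding genes of that length. From 2000 to 4000 bases these shares were 26.5% and 6.72%, and over 4000 bases 14.3% and 2.04%. Lower calls fell to 4 without control 1 or control 2, to 5 without control 3, without IRE1-treated sample 2 or with the length and GC trend removed, and to 6 with replicate number as a block. Higher calls fell to 19 without control 2 and to 20 with the trend removed. With the trend removed together with the replicate block, 3 were lower and 16 higher. Among 29 tested genes of the snRNPs and the LSM ring, 18 were higher and 1 lower, with a median of 0.239. Many of these have short transcripts, with a median length of 1671 bases. SNRPD1, a Sm ring protein, had 1559, 1591 and 1583 normalized counts in controls 1 to 3 and 2754, 2065 and 2060 in treated samples 1 to 3. Treated sample 1 stood well above the other treated samples, and all 3 were above the controls (log2 fold change 0.537, SE 0.086, adjusted p = 0.000617). SNRPF, of the same ring, reached 0.487 (SE 0.0768), and BUD31, of the Prp19-related complex, 0.45 (SE 0.0696). The lower gene was SNRNP200, the long U5 helicase and partner of PRPF8, at −0.258 (SE 0.0534, adjusted p = 0.00313, 7194 bases), chosen for mention after its value was seen. With the length and GC trend removed SNRNP200 was not called (−0.0665, adjusted p = 0.343), and 12 of the 29 genes were higher (9 with the replicate block added).

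In the Prp19-related complex 6 of 10 genes were higher, and 3 without control 2. Of the helicases 3 of 9 were lower (AQR, DDX39B and DHX15), and 5 with library size alone, but 0 without control 1, control 2 or IRE1-treated sample 2 or with replicate number as a block, and 1 without control 3. At an unadjusted p under 0.05 the lower helicases were 3, and DESeq2 called 2. Their median was −0.0862, below 0 under each scaling but 0.0452 once the length and GC trend was removed. DDX39B (−0.274, adjusted p = 0.00196) and DHX15 (−0.14, adjusted p = 0.034) were still lower after removal, and AQR was not (0.117, adjusted p = 0.156). With the replicate block added to the removal, 1 helicase was lower. AQR, DDX39B and DHX15 were chosen for mention after their values were seen. Of the SR protein kinases 2 of 6 were lower by edgeR and by DESeq2, but 0 when any single library except IRE1-treated sample 3 was left out and 0 with the trend removed. Their median was 0.0668, and −0.000603 with the trend removed. With library size alone it was −0.00898, through the shift common to all genes.

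Of the exon junction complex 2 of 7 were higher and 1 lower. Without any control or without IRE1-treated sample 2 these were 1 and 0, and with the trend removed neither was called. Of 25 other regulators 4 were lower and 3 higher, with 6 and 1 with library size alone, and with 1 higher without control 2 and 7 without IRE1-treated sample 3. The lowest of the whole list were 3 regulators of alternative splicing. QKI had 455, 431 and 398 normalized counts in controls 1 to 3 and 216, 319 and 302 in treated samples 1 to 3 (log2 fold change −0.611, SE 0.116, adjusted p = 0.00187). MBNL1 had 3248, 3510 and 3126 against 2067, 2021 and 2437 (−0.598, SE 0.0673, adjusted p = 5.98e-05). CELF1 had 1444, 1542 and 1475 against 954, 1074 and 1066 (−0.526, SE 0.0597, adjusted p = 6.19e-05). In all 3 the groups did not overlap, and they fell further than any of the 62 hnRNP, SR and core factors. With the trend removed MBNL1 (−0.404, adjusted p = 9.41e-05) and CELF1 (−0.293, adjusted p = 0.00182) kept the call and QKI did not (−0.315, adjusted p = 0.0552), while no member of the hnRNP, SR and core families was then lower.

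The treated libraries were not alike. Against the mean of the controls, the median log2 difference of the members was 0.108 in IRE1-treated sample 1, 0.0125 in sample 2 and 0.0509 in sample 3. Over the 15 members under 2000 bases it was 0.26, 0.0864 and 0.0725, and over the 22 members above 4000 bases 0.0429, −0.0559 and −0.00448. The controls differed too. Each control was set against the mean of the other controls, which gave 0.0428, −0.0133 and −0.0322 over the members in controls 1 to 3. Their values were 0.0379, −0.0507 and 0.0182 under 2000 bases, and 0.0579, 0.00857 and −0.0634 above 4000 bases. A control set against fewer libraries spreads more, so the treated and control ranges cannot be compared directly. Sample 1 also had the lowest depth and the lowest TMM factor (0.947, against 0.98 and 0.996 in the other treated samples and 1.02 to 1.03 in the controls). The part of depth and of RNA integrity in these differences was not tested. Without sample 1, 5 members were lower and 13 higher, with a median over the members of 0.028.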

How the data were processed

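The authors trimmed reads from the stranded poly(A) libraries with cutadapt 1.12, aligned them to hg19 with STAR 2.5.3a and made gene counts with HTSeq 0.6.1p1 per the labels, and deposited these raw counts for each library. The strand and overlap settings of the counting are not given in the sources used here. Summary lines that name no gene (21.4% to 23.2% of counts) were left out. The authors also deposited CPM for 12558 genes, used only in an alternative.

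Genes with few counts were removed by the filter of edgeR 4.0.16 in R 4.3.3, libraries were scaled by TMM, and groups were compared by the quasi-likelihood test over all 6 samples without covariates. P-values were adjusted by the Benjamini-Hochberg method over all tested genes, and 0.05 was the threshold. An exact permutation test of 3 against 3 samples cannot go below p = 0.1 and was not used. The depth on genes was 19615715 to 25678499 counts. Replicates are called biological in the labels' design, and p-values measure the spread between these samples. The chi-square per gene between libraries was at least 2.2, so none was a copy of another. The fits were tested on simulated data.

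The annotation named 55538 of the 57905 gene IDs. Names, positions, lengths and sequences came from GENCODE 44 on GRCh37, with the Ensembl canonical transcript for each gene (287 tested genes had no length). Sites were folded with ViennaRNA 2.7.2. The genes named were the 6 lowest and 6 highest members, the lowest and highest of each family, a fixed list of 17 well known factors, and the 3 lowest and 3 highest other spliceosome genes; any further gene was named after its value was seen. Members and lists were chosen with earlier results of these data known. Alternatives were DESeq2 1.42.0, upper quartile scaling, library size alone, the absence of a filter, at least 10 counts in every library, limma 3.58.1 on log2 of the authors' CPM plus 1, a replicate block, removal, library by library, of a trend fitted by loess (span 0.5) on the length and the GC content of transcripts, both of these together, each library left out in turn, and the longest transcript in place of the canonical one. Exon counts were not analysed here.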

Additional observations from a re-analysis of the deposited data

How the results depend on the processing

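For 30 named genes, 398 of 450 comparisons with an alternative kept the direction and the side of the threshold. Lower members numbered 5, and 8 with library size alone, 0 with the length and GC trend removed and 0 with the trend removed together with the replicate block. Higher members numbered 14, and 7 with library size alone. All tested genes called numbered 3270, and 1550 with the trend removed. Over 4000 bases, lower members numbered 5 (0 with the trend removed, with or without the block) and higher ones 2 (1 with library size alone, 14 with the trend removed, 13 with the block added, 6 with the longest transcript in place of the canonical one). Higher members under 2000 bases numbered 6 (2 with the trend removed, with or without the block). Removal of the trend takes out the part of a change that goes with length, which is its construction. For the other shifts the cause was not tested.

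With library size alone, which moved all tested genes down by a median of 0.0749, the members' median of 0.0706 became −0.00524, and U2AF2 (−0.0338), SRSF2 (−0.0712), SRSF3 (−0.0165) and TRA2B (−0.0518), none of them called, changed sign through this common shift. With the trend removed, PRPF4B (0.0587), SRSF11 (0.0418), U2AF2 (−0.0266), HNRNPU (0.156) and SRSF2 (−0.0848) changed sign. SRSF2 also did so without a filter (−0.00637), without control 1 (−0.0233) and without IRE1-treated sample 1 (−0.027, the lowest without a library, with 0.0437 the highest).

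With each library left out in turn, lower members ranged from 4 to 6, higher members from 7 to 18, all genes called from 1630 (without control 2) to 4312 (without IRE1-treated sample 3), with 1681 without control 1 and 1982 without IRE1-treated sample 2, and the members' median from 0.028 to 0.0928. Over 4000 bases, higher members ranged from 1 (without control 2) to 3, and lower ones from 4 to 5. From 2000 to 4000 bases, higher members ranged from 2 to 7, and under 2000 bases from 4 to 8.

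The values gave no sign that the replicate numbers pair the samples. Same-numbered samples had correlations of −0.0358, −0.00505 and −0.112 in their deviations, and no sample correlated best with its own number. Whether such samples share more than a number is not given in the sources used here. With the replicate block, lower members numbered 4, higher members 10, and all genes called 2613. With the block and the trend removed together, these were 0, 20 and 1346, the members' median was 0.0581, and PRPF4B (0.0602), SRSF11 (0.041), U2AF2 (−0.0276), HNRNPU (0.156) and SRSF2 (−0.0846) changed sign. The recovery of changes as small as most of these was not tested.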
